A study of Mus musculus with 33 samples.

Results

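The histone cluster genes are the mouse genes whose symbols begin with Hist1h, Hist2h, Hist3h or Hist4h, and 70 of the 54752 genes in the forebrain tables carry such a symbol. They comprise 78 transcripts, 67 protein-coding genes and 3 pseudogenes. By protein there were 6 genes for the linker histone H1 and 20, 19, 12 and 13 for the core histones H2A, H2B, H3 and H4. By position, 56 were in the Hist1 cluster, 10 in Hist2, 3 in Hist3 and 1 in Hist4. The hippocampus footprint table held 67 of the 70, among 22523 genes.

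RNA was measured in mice, all 8 weeks old, that differ in n-Tr20, a tRNA for arginine found mainly in neurons. The forebrain groups, of 4 samples each, were C57BL/6J (B6J) mice without n-Tr20 (B6J knockout), B6J mice with their native hypomorphic n-Tr20, B6J mice carrying an n-Tr20 transgene (B6J transgenic), C57BL/6NJ (B6N) mice without n-Tr20 (B6N knockout), and B6N mice with wild-type n-Tr20. All B6J knockout libraries were in batch 2 and the other forebrain libraries in batch 1, apart from 1 transgenic sample that was sequenced in both, so 20 samples gave 21 libraries. Hippocampus libraries, of poly(A) RNA and of ribosome footprints, came from B6N knockout and B6N mice, with 3 samples of each for each assay. Their titles name no batch. A tRNA is not counted in these tables, so the knockout labels have no direct check here.

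Cluster histone genes supply the histones that package newly copied DNA, and their mRNAs accumulate mainly in S phase. Unlike almost every other animal mRNA, most of these transcripts lack introns and end in a stem-loop instead of a poly(A) tail. Some members also give longer, polyadenylated transcripts in cells that have stopped dividing. Many copies of a core histone are close to identical in their coding sequence, so their reads can often not be assigned to a single copy, and each result is therefore also given for the 5 sums by type.

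Libraries held between 14699162 and 38489757 estimated counts in forebrain, between 35825476 and 60426608 counts in hippocampus poly(A) RNA and between 7616107 and 17896587 counts in footprints. None of the 46 pairs of libraries within a group agreed within sampling noise. Camk2a, a gene of forebrain excitatory neurons, lay between 840.5 and 1217.8 counts per 1000000 (CPM) across the forebrain groups, and Prox1, a gene of dentate granule cells, averaged 152.0 CPM in B6N knockout and 129.6 CPM in B6N hippocampus RNA. The cerebellum list summed to at most 19.9 CPM in any library. Mki67 and Top2a, genes of dividing cells, averaged 6.49 and 3.21 CPM in B6J knockout forebrain, and 6.8 and 4.45 CPM in B6N forebrain. In bulk tissue, fewer cells of a type and less RNA per cell cannot be told apart.

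The promoter windows show what the members share in sequence. RefSeq tables for GRCm38.p6 matched 69 of the 70 members to 1 gene and held a window of 300 bases, from 250 before to 50 after the annotated start, for 61 of them. The stretches below are the 120 bases before the start of the member with the highest forebrain level per length in each type, among those with a window. Capitals mark the letters of 3 known histone promoter motifs on either strand. These are the CCAAT box, the TATA box with the letters TATAAA, and the octamer with the letters ATGCAAAT.
Hist1h1c, chr13:23738687-23738806, plus strand: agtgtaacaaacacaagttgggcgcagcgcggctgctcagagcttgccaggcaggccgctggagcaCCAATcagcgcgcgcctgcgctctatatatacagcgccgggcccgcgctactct
Hist2h2aa2, chr3:96240375-96240494, minus strand: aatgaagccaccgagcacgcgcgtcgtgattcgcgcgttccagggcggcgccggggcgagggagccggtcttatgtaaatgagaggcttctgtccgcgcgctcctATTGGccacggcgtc
Hist2h2bb, chr3:96269580-96269699, plus strand: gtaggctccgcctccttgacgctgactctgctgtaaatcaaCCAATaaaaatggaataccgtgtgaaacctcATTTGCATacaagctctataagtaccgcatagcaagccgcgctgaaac
Hist1h3i, chr13:21783398-21783517, minus strand: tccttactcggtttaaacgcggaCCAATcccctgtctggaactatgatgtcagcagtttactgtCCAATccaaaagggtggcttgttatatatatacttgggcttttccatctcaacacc
Hist1h4h, chr13:23530924-23531043, plus strand: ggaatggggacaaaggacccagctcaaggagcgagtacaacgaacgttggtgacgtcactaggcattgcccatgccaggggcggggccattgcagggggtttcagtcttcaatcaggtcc

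CCAAT stood in 52 of the 61 histone windows (85.2%), against 37.9% of all 27025 RefSeq windows. All 6 H1, 17 H2A, 16 H2B and 10 H3 windows held it, but 3 of 12 H4 windows did (25%), and the H4 stretch printed above has none. TATAAA stood in 35 histone windows (57.4%), against 14.2% of all windows. The octamer ATGCAAAT, the letters bound by the factor Oct1 in H2B promoters, was found in 13 of 61 windows (21.3%), against 1.75% of all, namely in 7 of 17 H2A and 6 of 16 H2B windows. None of the H1, H3 and H4 windows held it. H2A and H2B genes often lie back to back, so that one stretch can fall in the windows of both. These matches are descriptions of letters, not of binding.

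In forebrain total RNA, from which ribosomal RNA but not RNA without a poly(A) tail had been removed, the H4 genes led. Levels are compared between genes in transcripts per 1000000 (TPM), which divides by transcript length. Over the 20 forebrain samples, with the repeated one as the mean of its 2 libraries, the H4 genes summed to 261.2 ± 23.0 TPM (SD, n = 20), 53.9% of the histone TPM. H2B genes summed to 84.9 ± 8.7, H2A genes to 72.7 ± 9.57, H3 genes to 39.4 ± 3.63 and H1 genes to 27.1 ± 3.37 TPM. The order of genes and types in TPM depends on the annotated transcript lengths, which were uneven. They were 470 bases for Hist1h4h, 312 for Hist1h4k, 820 for Hist1h4c, 1138 for Hist1h4d and 7425 for the linker histone gene Hist1h1d. By this measure the highest single gene was Hist1h4h at 60.4 ± 5.19 TPM. Hist1h4k stood at 39.3 ± 5.98, Hist1h4c at 30.4 ± 2.56 and Hist1h4d at 26.1 ± 2.27 TPM, the last pair within their spreads of each other. The place of Hist1h4n depended on the strain. It had 25.5 ± 7.12 TPM in B6J knockout, 19.9 ± 3.2 in B6J, 18 ± 2.81 in B6J transgenic, 47.3 ± 2.6 in B6N knockout and 48.6 ± 1.8 TPM in B6N (SD, n = 4 each), where its mean was above that of Hist1h4k, at 35.4 ± 5.44 TPM in B6N knockout and 39.3 ± 2.39 TPM in B6N. Hist1h4m averaged 30.5 ± 10.9 TPM in B6J knockout, 34.8 ± 7.75 in B6J and 31.1 ± 5.52 TPM in B6J transgenic forebrain and was near 0 on the B6N background. The 12 highest members held 63.2% of the histone TPM. Outside H4 the leaders were Hist2h2aa2 at 21.6 ± 5.94 TPM, Hist2h2bb at 19.7 ± 4.53 TPM, Hist1h3i at 10.7 ± 2.07 TPM and Hist1h1c at 9.56 ± 1.34 TPM. Hist1h2aa and Hist1h2ba, which code for histones of the testis, were at 0 in all 21 libraries.

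**Figure D1:**
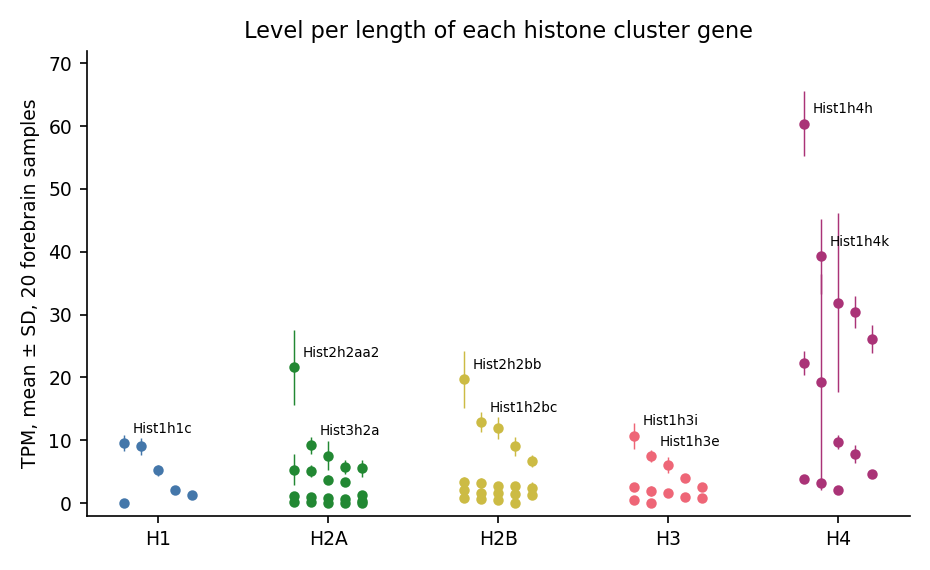
Mean level of each of the 70 members in transcripts per 1000000 (TPM) over the 20 forebrain samples, by histone type. Points are means and bars are 1 SD, and the wide bars in the H4 column belong to Hist1h4m and Hist1h4n, which differed between strains. Hist1h4h, at 60.4 TPM, stands above every other member.

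Counted per gene, the most abundant members in forebrain were Hist1h4d, Hist1h4h and Hist1h4c of the H4 type, the H2A gene Hist3h2a, the linker histones Hist1h1e and Hist1h1c, the H2B gene Hist1h2bc, then Hist1h4n, Hist2h2aa2, Hist1h4k, Hist1h1d and Hist1h4f. All together the members took 0.0452% to 0.0526% of the counts of a forebrain library. Hist1h4d averaged 44.0 ± 6.04 CPM in B6J knockout, 46.1 ± 4.17 in B6J, 45.6 ± 4.74 in B6J transgenic, 44.1 ± 1.62 in B6N knockout and 47.2 ± 2.54 CPM in B6N forebrain (SD, n = 4 each, with the repeated sample as the mean of its 2 libraries). Hist1h4h averaged 36.9 ± 3.89 CPM in B6J knockout, 40.2 ± 4.18 in B6J, 40.3 ± 2.32 in B6J transgenic, 38.1 ± 2.74 in B6N knockout and 38.4 ± 4.41 CPM in B6N. For both genes the ranges of all 5 groups overlapped.

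Removal of n-Tr20 on the B6N background left no histone cluster gene past the threshold in the forebrain. The threshold throughout is an adjusted p of 0.05 in edgeR's quasi-likelihood F test, adjusted over all features tested after Benjamini and Hochberg, and a log2 change is given ± its SE. Of the 62 members with enough counts for the test, 0 were called between B6N knockout and B6N forebrain, where 1.91% of all 25151 tested genes were called. The members' log2 changes lay between -0.63 and 0.69 with a median of 0.02, beside 0 for all genes. At an unadjusted p under 0.05 there were 7 members, beside 12.7% of all genes, and DESeq2 also called 0 members. Hist1h2be, an H2B gene, had the lowest p, with a log2 change of 0.23 ± 0.083 (edgeR adjusted p = 0.177). By type, H1 genes summed to 78.1 ± 6.97 CPM in B6N knockout and 70.2 ± 10.4 CPM in B6N forebrain, and H4 genes to 210.9 ± 11.0 CPM in B6N knockout and 215.3 ± 12 CPM in B6N (SD, n = 4 each). Both pairs of ranges overlapped.

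No sum by type was called in any of the 6 forebrain comparisons. Of all features, 0.751% were called in B6J knockout against B6J transgenic, 0.102% in B6J knockout against B6J, 0.251% in B6J against B6J transgenic, 1.73% in B6J against B6N, 0.359% in B6J transgenic against B6N and 1.92% in B6N knockout against B6N. The H3 sum in B6J against B6N had an adjusted p of 0.349 (edgeR; log2 change 0.16 ± 0.071), with 41.9 ± 3.56 CPM in B6J and 37.6 ± 4.59 CPM in B6N (SD, n = 4 each). Without B6N replicate 2 there was 1 sum called in that comparison. The H2A sum in B6J knockout against B6J had a log2 change of 0.23 ± 0.093 (edgeR adjusted p = 0.48).

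**Figure D2:**
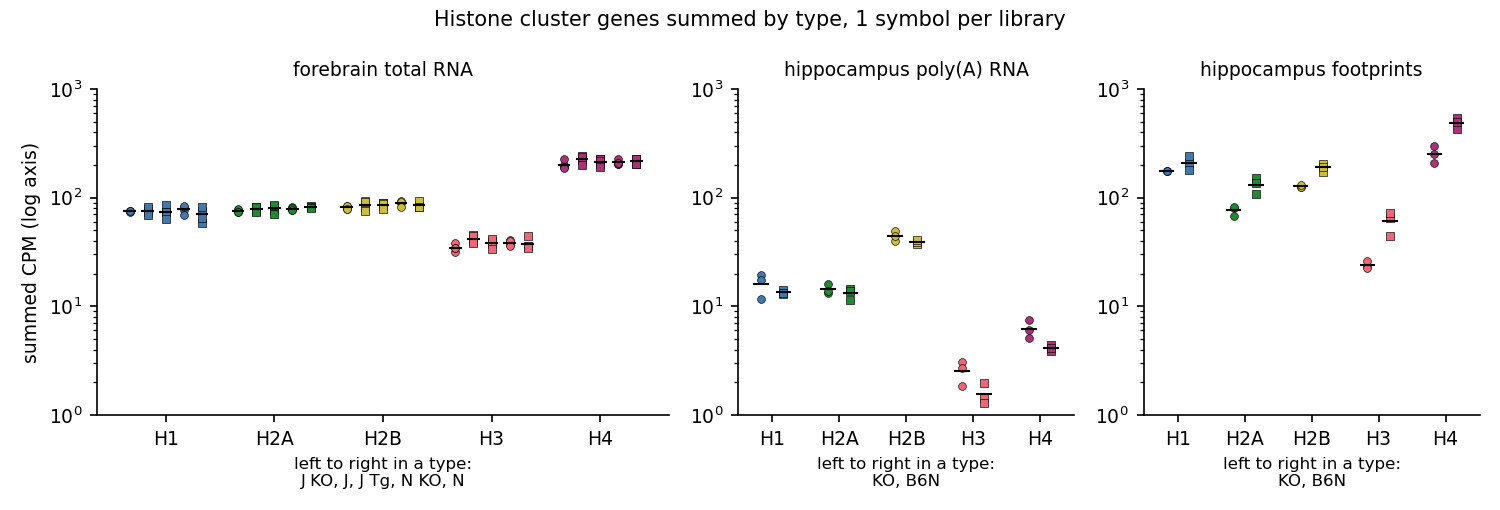
Counts per 1000000 (CPM) of the histone cluster genes summed by type, on a log axis, for forebrain total RNA, hippocampus poly(A) RNA and hippocampus footprints. Each symbol is 1 library (circles, knockout; squares, the other groups), bars are group means, and J and N stand for B6J and B6N. In forebrain the 5 groups overlap in H1, H2B and H4, poly(A) RNA holds little H3 and H4, and the knockout footprint symbols lie under the B6N ones in all 5 types.

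Between the strains, 2 of 62 members were called and both code for H4: Hist1h4m and its neighbour Hist1h4n. In B6J against B6N 1.73% of all tested genes were called, and in B6J transgenic against B6N, with the same B6N libraries, 0.366%. The RefSeq windows of these genes matched at all but 1 of 299 aligned bases. The 30 bases that surround this difference, 3 bases before the start codon ATG, are printed because they hold the only base of the windows by which a read of one copy could be told from the other; the capital marks it.
Hist1h4m, chr13:21811765-21811794, plus strand: gtacagttttgtcttcGtcatgtctggtcg
Hist1h4n, chr13:21832148-21832177, minus strand: gtacagttttgtcttcAtcatgtctggtcg

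Hist1h4m had 8.84, 17.5, 16.3 and 10.3 CPM in the B6J knockout libraries, 20.8, 16.8, 24.8 and 16.3 CPM in B6J, and 16.5, 17.0, 19.0 and 19.5 CPM in B6J transgenic mice, with 18 CPM in the repeat library. It was at 0 in all 8 B6N knockout and B6N libraries. A limit of 3 counts in each B6N library was taken for a count of 0. Against it the assigned level was at least 150.8-fold higher in B6J and at least 136.2-fold higher in B6J transgenic forebrain. Both comparisons with B6N were called (edgeR adjusted p = 4.9e-08 and 5.55e-08). The limit covers counting error and not the division of shared reads between Hist1h4m and Hist1h4n, so it does not bound the RNA of the gene itself. Every library on the B6J background lay above every library on the B6N background, whatever the n-Tr20 genotype.

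Hist1h4n had the opposite order. It averaged 12.7 ± 3.46 CPM in B6J knockout, 13.0 ± 2.5 in B6J, 11.5 ± 0.957 in B6J transgenic, 29.7 ± 1.39 in B6N knockout and 29.3 ± 2.08 CPM in B6N (SD, n = 4 each). The highest library on the B6J background, at 16.2 CPM, was below the lowest on the B6N background, at 27.6 CPM. The log2 change was -1.16 ± 0.095 in B6J and -1.36 ± 0.095 in B6J transgenic against B6N (edgeR adjusted p = 9.89e-08 and 1.14e-08).

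Added together, the pair did not differ past the threshold. The sum was 25.9 ± 2.02 CPM in B6J knockout, 32.7 ± 5.06 in B6J, 29.2 ± 2.12 in B6J transgenic, 29.7 ± 1.39 in B6N knockout and 29.3 ± 2.08 CPM in B6N. Its log2 change was 0.16 ± 0.086 in B6J and 0.00 ± 0.086 in B6J transgenic against B6N (edgeR adjusted p = 0.477 and 0.995). Summing the pair was chosen after the values were seen. Whether the strains differ in the use of the copies or in bases that assign reads to one of them was not tested. The sequences of the copies were compared in the RefSeq windows only. Beyond the windows, the rest of their transcripts was not compared, so other bases that differ between the copies are possible.

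**Figure D3:**
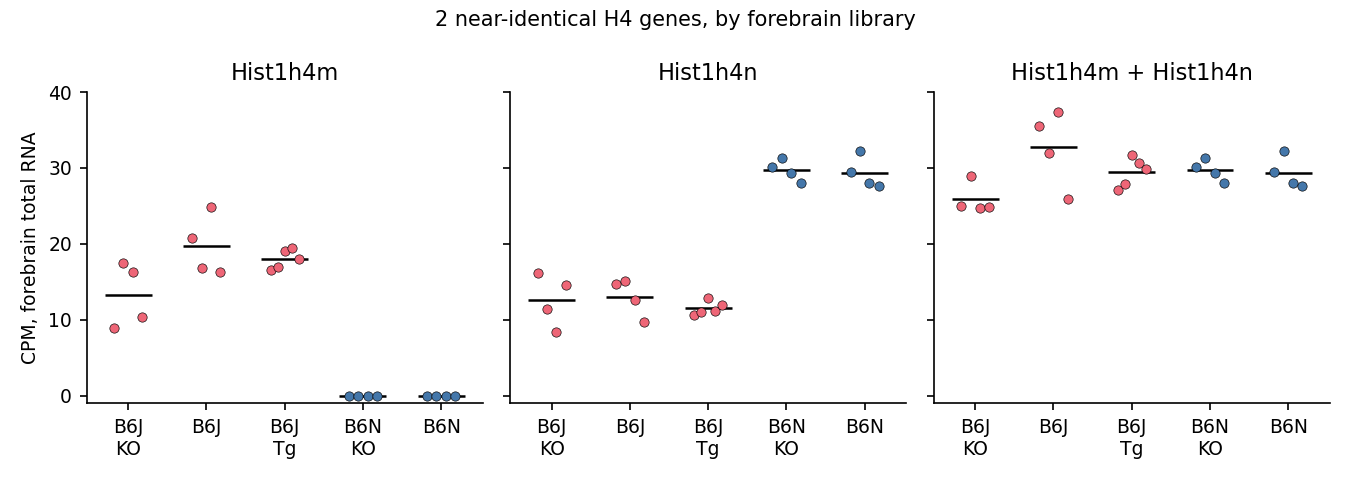
CPM of Hist1h4m, Hist1h4n and their sum in the 21 forebrain libraries, with 1 point per library and a line at the mean of the libraries in a group. Hist1h4m is above 8 CPM in every library on the B6J background (red) and 0 in every library on the B6N background (blue), Hist1h4n is lower on the B6J background, and the sums overlap.

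Within the B6J strain, n-Tr20 level was tested by B6J against B6J transgenic mice, where 0 of 62 members were called (0.25% of all genes). At an unadjusted p under 0.05 there were 4 members, beside 10.3% of all genes, and DESeq2 called 0 members. The lowest p belonged to Hist2h4, an H4 gene, at 0.22 ± 0.079 on the log2 scale (edgeR adjusted p = 0.262).

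The B6J knockout libraries, from the other batch, were set against both with a batch term that rests on the transgenic sample present in the 2 batches. Here 1 of 63 members was called against B6J transgenic (0.738% of all genes) and 1 of 63 against B6J (0.106%), in both cases the H2A gene Hist2h2aa2. Hist2h2aa2 had 19.4, 18.6, 20.2 and 20.1 CPM in B6J knockout, 15.2, 13.0, 17.4 and 19.9 CPM in B6J, and 16.2, 13.5, 14.1 and 21.9 CPM in B6J transgenic libraries. The transgenic sample at 21.9 CPM gave 13.1 CPM in its batch 2 library, and the knockout libraries overlapped both other groups. With the batch term the log2 change was 1.02 ± 0.17 against B6J transgenic and 1.01 ± 0.19 against B6J (edgeR adjusted p = 0.00213 and 0.0181), and DESeq2 called 0 members against B6J.

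The near-identical neighbour Hist2h2aa1, whose window matched that of Hist2h2aa2 at 95.8% of 260 aligned bases, had 0.987, 5.54, 0.479 and 1.75 CPM in B6J knockout, 9.03, 8.58, 5.33 and 1.88 CPM in B6J, and 8.47, 7.87, 10.2 and 6.12 CPM in B6J transgenic libraries. Its log2 changes, -1.96 ± 0.9 and -1.6 ± 1.0, had the opposite sign and did not pass the threshold (edgeR adjusted p = 0.417 and 0.761). The sum of the pair, chosen after the values were seen, changed by 0.35 ± 0.12 and 0.47 ± 0.14 on the log2 scale (edgeR adjusted p = 0.196 and 0.23). In the B6J knockout group 3 of 4 libraries had Xist at 335.0 to 368.4 CPM, and its choroid plexus markers summed to 800.8 to 1057.8 CPM, against 193.5 to 929.1 CPM in B6J and 213.4 to 286.4 CPM in B6J transgenic forebrain; their part in this result was not tested.

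In hippocampus poly(A) RNA few of the members reached 1 CPM. In B6N mice 8 of the 70 averaged 1 CPM or more (11.4%), against 62.6% of all protein-coding genes. In B6N forebrain total RNA 53 of 70 did (75.7%, against 67.7%), and in B6N footprints 48 of 67 did (71.6%, against 60.4%). More members thus reached 1 CPM in the footprints and in the total RNA than in the oligo(dT)-selected RNA. Below that level, the B6N poly(A) libraries held at least 1 count of 41 to 43 members each. The total RNA came from another tissue, and its reads were assigned by another method. The 8 were the H2B genes Hist1h2bc at 16, Hist3h2ba at 10.1, Hist2h2be at 8.06 and Hist1h2be at 3.73 CPM, the linker histone Hist1h1c at 12.3 CPM, the H2A genes Hist3h2a at 11.6 and Hist1h2ac at 1.24 CPM, and the H4 gene Hist2h4 at 1.87 CPM. They held 90.8% of the histone CPM of that RNA.

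Most of these genes have long transcripts. In 7 of the 8 the longest annotated transcript exceeded 1000 bases, which holds for 18 of the 70 members, and the exception was Hist3h2ba with 614 bases. Those 18 members gave 80.7% of the histone CPM in B6N poly(A) RNA, 52.5% in B6N footprints and 43.8% in B6N forebrain total RNA. Tissue and kit differ between the RNA sets, and their parts cannot be told apart.

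Footprints exceeded poly(A) RNA for all 5 sums by type. In B6N hippocampus the footprint sum was higher than the RNA sum at a log2 ratio of 7.02 ± 0.12 for H4, 5.42 ± 0.22 for H3, 4.11 ± 0.12 for H1, 3.47 ± 0.14 for H2A and 2.44 ± 0.083 for H2B (edgeR adjusted p between 8.17e-11 and 4.47e-08; 34.9% of all features higher). Of the 11 members that reached the minimum for testing, 10 counts at the median library size, in all 3 libraries of both assays, 10 were higher and 1 was lower in footprints, with a median log2 ratio of 2.47 and a range from -1.77 to 6.66. Of all 14838 tested genes 72.7% were called, 35% higher and 37.7% lower, with a median of -0.05. A further 42 members entered the test through their footprints alone and 1 through RNA alone. Such members had to differ, so their calls, 42 higher and 1 lower, are a description of where they were present. The ratio compares an assay that selects poly(A) tails with one that does not, so it is not a rate of translation. Among other protein-coding genes with no transcript over 1000 bases, 59.8% of 570 were higher in footprints with a median log2 ratio of 0.93, and among longer ones 33.8% with a median of -0.08.

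Hist2h2bb had 76.9, 90.2 and 84.1 CPM in B6N footprints and no count in the 3 B6N RNA libraries, at least 1226.0-fold more in footprints. At the same limit of 3 counts the H4 genes Hist1h4f and Hist1h4a were at least 427.7-fold and 126.6-fold, the H3 gene Hist1h3a at least 105.6-fold and the H2A gene Hist1h2ab at least 77.6-fold higher in footprints. Hist1h4d, with 136.3, 131.5 and 120.6 CPM in footprints, had 0.073, 0.101 and 0.0953 CPM in poly(A) RNA, a log2 ratio of 10.56 ± 0.15. For Hist1h4b and Hist1h4c the log2 ratios were 11.11 ± 0.34 and 9.92 ± 0.25. All genes of this paragraph entered the test through footprints alone, so these values describe where they were present.

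At the other end stood Hist2h2be, an H2B gene, with 1.39, 2.61 and 2.4 CPM in footprints and 6.99, 8.91 and 8.27 CPM in poly(A) RNA, a log2 ratio of -1.77 ± 0.24 (edgeR adjusted p = 5.25e-05). The H3 gene Hist2h3c2 was also lower in footprints, by a log2 ratio of -1.55 ± 0.48. It was the member that entered the test through RNA alone, so its call describes where it was present. The next lowest ratios were 0.97 ± 0.09 for Hist1h2bc, 1.3 ± 0.19 for Hist3h2ba and 1.7 ± 0.19 for Hist1h2be, all members found in poly(A) RNA.

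**Figure D4:**
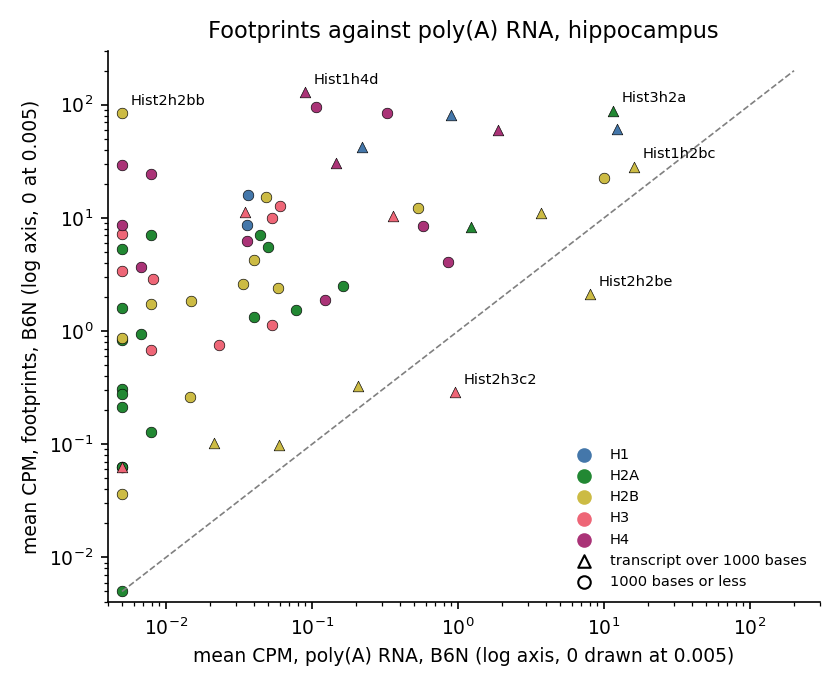
Mean CPM of each member in B6N hippocampus footprints against its mean CPM in B6N hippocampus poly(A) RNA, on log axes with 0 drawn at 0.005 and the dashed line marking equal values. Triangles are members whose longest transcript exceeds 1000 bases. Most members lie far above the line, and Hist2h2be and Hist2h3c2 lie under it.

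Loss of n-Tr20 was then compared within each hippocampus assay. In poly(A) RNA 0 of 18 tested members were called in B6N knockout against B6N (0.0413% of all 19352 genes). At an unadjusted p under 0.05 there were 5 members, beside 7.94% of all genes, and DESeq2 called 0 members. The 15 members that reached the minimum count in both groups had a median log2 change of 0.33, beside 0 for all genes. The sums by type were likewise not called (0.0414% of all features). H4 genes had 5.12, 7.48 and 6.11 CPM in B6N knockout and 3.85, 4.42 and 4.17 CPM in B6N poly(A) RNA, without overlap, a log2 change of 0.59 ± 0.16 (edgeR adjusted p = 0.393). H3 genes had 1.86, 3.05 and 2.71 CPM in B6N knockout and 1.44, 1.95 and 1.29 CPM in B6N, which overlapped, a log2 change of 0.69 ± 0.24 (edgeR adjusted p = 0.495). The first B6N knockout RNA library, alone among the 6, had Xist at 1242.0 CPM and Ddx3y at 0.336 CPM, and its part in these values was not tested.

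In footprints, 20 of 45 tested members were lower in B6N knockout than in B6N hippocampus and 0 were higher, where 3.16% of all 13227 tested genes were lower and 2.19% higher. Of the 34 members that reached the minimum count in both groups 17 were lower, with a median log2 change of -0.66, beside 0 for all genes. Another 7 reached it in B6N alone and so entered the test where they were high. Of these, 3 were lower, the H4 gene Hist1h4n and the H3 genes Hist2h3b and Hist1h3a. Their calls are a description of where they were present. A further 4 reached it in neither group by itself. All cluster histones together took 605.9, 657.6 and 710.5 CPM in B6N knockout footprints and 961.3, 1133.6 and 1140.4 CPM in B6N footprints. The highest knockout library was below the lowest B6N library. By type, 8 of 13 H4, 5 of 7 H3, 4 of 12 H2B, 3 of 8 H2A and 0 of 5 H1 genes were lower. The H4 count includes Hist1h4n, and the H3 count includes Hist2h3b and Hist1h3a.

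The core histone sums were lower and the linker histone sum was not called (3.05% of all features were lower). H3 genes, the core histones that carry many of the marks of active and silent chromatin, had 23.7, 26.2 and 22.6 CPM in B6N knockout and 44.8, 64.7 and 72 CPM in B6N footprints, a log2 change of -1.33 ± 0.16 (edgeR adjusted p = 0.00169). H4 genes had 210.4, 251.7 and 299.5 CPM in B6N knockout and 428.3, 535.9 and 495.6 CPM in B6N, a change of -0.94 ± 0.12 (edgeR adjusted p = 0.00513). H2A genes had 68.2, 79.7 and 82.0 CPM in B6N knockout and 107.6, 150.7 and 136.7 CPM in B6N, a change of -0.79 ± 0.12 (edgeR adjusted p = 0.00675). For these 3 types, as for H2B and H1 below, every knockout library was below every B6N library. The share of all features separated in this way is not given here.

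H2B genes, the partners of H2A in the nucleosome, had 126.4, 124.5 and 131.7 CPM in B6N knockout and 173.8, 202.6 and 192.5 CPM in B6N footprints, a log2 change of -0.57 ± 0.085 (edgeR adjusted p = 0.00458). H1 genes, which bind the linker DNA between nucleosomes, had 177.3, 175.6 and 174.7 CPM in B6N knockout and 206.8, 179.7 and 243.5 CPM in B6N footprints. The H1 libraries did not overlap either, but the log2 change of -0.26 ± 0.1 missed the threshold (edgeR adjusted p = 0.149). Without B6N replicate 3, the H2A sum was no longer called (edgeR adjusted p = 0.0584).

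Among single H3 genes, Hist1h3f had 1.15, 3.42 and 2.64 CPM in B6N knockout and 9.64, 11.9 and 12.1 CPM in B6N footprints, a log2 change of -2.33 ± 0.33 (edgeR adjusted p = 0.00411). Hist1h3e had 1.49, 3.29 and 4.44 CPM in B6N knockout and 9.84, 11.6 and 16.4 CPM in B6N, a change of -2.13 ± 0.35 (edgeR adjusted p = 0.0104). Neither overlapped between the groups. Hist1h3i was lower too, with a log2 change of -1.37 ± 0.33 (edgeR adjusted p = 0.0356). Hist2h3b had 0, 0.131 and 0.841 CPM in B6N knockout and 3.58, 3.69 and 2.84 CPM in B6N. The log2 changes of Hist2h3b and Hist1h3a were -3.64 ± 0.74 and -2.05 ± 0.44. Both genes entered the test through B6N alone, so their calls describe where they were present. Hist1h3d, with 11.2, 9.86 and 7.57 CPM in B6N knockout and 8.64, 10.1 and 12.2 CPM in B6N footprints, overlapped and had a log2 change of -0.1.

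Of the H4 genes, Hist1h4d had 54.3, 57.4 and 75.1 CPM in B6N knockout and 136.3, 131.5 and 120.6 CPM in B6N footprints, a log2 change of -1.06 ± 0.12 (edgeR adjusted p = 0.00109). Hist1h4c had 41.0, 48.2 and 54.9 CPM in B6N knockout and 77.0, 112.6 and 99.7 CPM in B6N, a change of -1.01 ± 0.15 (edgeR adjusted p = 0.00533). In both genes all knockout libraries were below all B6N libraries. Hist1h4h, the highest member per length in forebrain, had 19.3, 22.5 and 24.3 CPM in B6N knockout and 48.9, 104.1 and 98.8 CPM in B6N, a change of -1.94 ± 0.3 (edgeR adjusted p = 0.0233). Hist1h4a, Hist1h4f, Hist4h4 and Hist2h4 were lower, with log2 changes of -1.09, -0.82, -0.66 and -0.56 (edgeR adjusted p between 0.0229 and 0.0437). Of these, Hist2h4 had 35.4, 41.5 and 44.6 CPM in B6N knockout and 50.8, 61.2 and 66.7 CPM in B6N footprints. Hist1h4b went against the other H4 genes, with 22.6, 29.8 and 35.7 CPM in B6N knockout and 24.0, 27.6 and 21.4 CPM in B6N footprints, which overlapped at a log2 change of 0.26 ± 0.17.

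Hist1h4n and Hist1h4m, the copies that differed by strain in the forebrain, had few footprints. Hist1h4n had 0, 0.394 and 0.601 CPM in B6N knockout and 4.37, 11.4 and 3.02 CPM in B6N footprints, a log2 change of -4.54 ± 0.85. It entered the test through B6N alone, so its call describes where it was present. Hist1h4m had 0.402, 1.31 and 2.88 CPM in B6N knockout and 5.27, 5.21 and 0.533 CPM in B6N, which overlapped (log2 change -1.36 ± 0.89, edgeR adjusted p = 0.421). It thus had footprint counts in B6N hippocampus, from 6 to 53 per library, although it was at 0 in B6N forebrain, where reads were assigned by another method. The sum of the pair had a log2 change of -2.56 ± 0.87 (edgeR adjusted p = 0.167).

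Among H2A and H2B genes, Hist3h2a had 48.5, 55.9 and 57.2 CPM in B6N knockout and 73.6, 101.4 and 90.8 CPM in B6N footprints, a log2 change of -0.72 ± 0.12 (edgeR adjusted p = 0.00901). Hist1h2ac had 2.59, 3.55 and 2.4 CPM in B6N knockout and 5.86, 10.6 and 8.53 CPM in B6N, a change of -1.56 ± 0.29 (edgeR adjusted p = 0.0139). Hist1h2bc had 19.3, 21.2 and 17.2 CPM in B6N knockout and 26.8, 28.8 and 29.3 CPM in B6N, a change of -0.56 ± 0.14 (edgeR adjusted p = 0.0334). No knockout library of these 3 genes reached a B6N library. Hist1h2bg, Hist1h2be, Hist1h2ak and Hist2h2bb were lower, with log2 changes of -1.15, -1.14, -0.96 and -0.43 (edgeR adjusted p between 0.0179 and 0.0437). Hist2h2bb, which had no count in B6N RNA, had 64.5, 54.5 and 67.5 CPM in B6N knockout and 76.9, 90.2 and 84.1 CPM in B6N footprints. Hist2h2be, the H2B gene that was lower in footprints than in RNA, had 3.39, 2.89 and 2.4 CPM in B6N knockout and 1.39, 2.61 and 2.4 CPM in B6N footprints, a log2 change of 0.46 that was not called.

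No linker histone gene passed the threshold in footprints. Hist1h1e had 59.3, 64.7 and 65.0 CPM in B6N knockout and 80.6, 69.2 and 94.6 CPM in B6N footprints, a log2 change of -0.37 (edgeR adjusted p = 0.075). Hist1h1c had 53.3, 53.5 and 56.7 CPM in B6N knockout and 63.9, 50.3 and 70.2 CPM in B6N, a change of -0.18, with overlap. Hist1h1d, Hist1h1a and Hist1h1b had log2 changes of -0.29, -0.12 and 0.09.

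**Figure D5:**
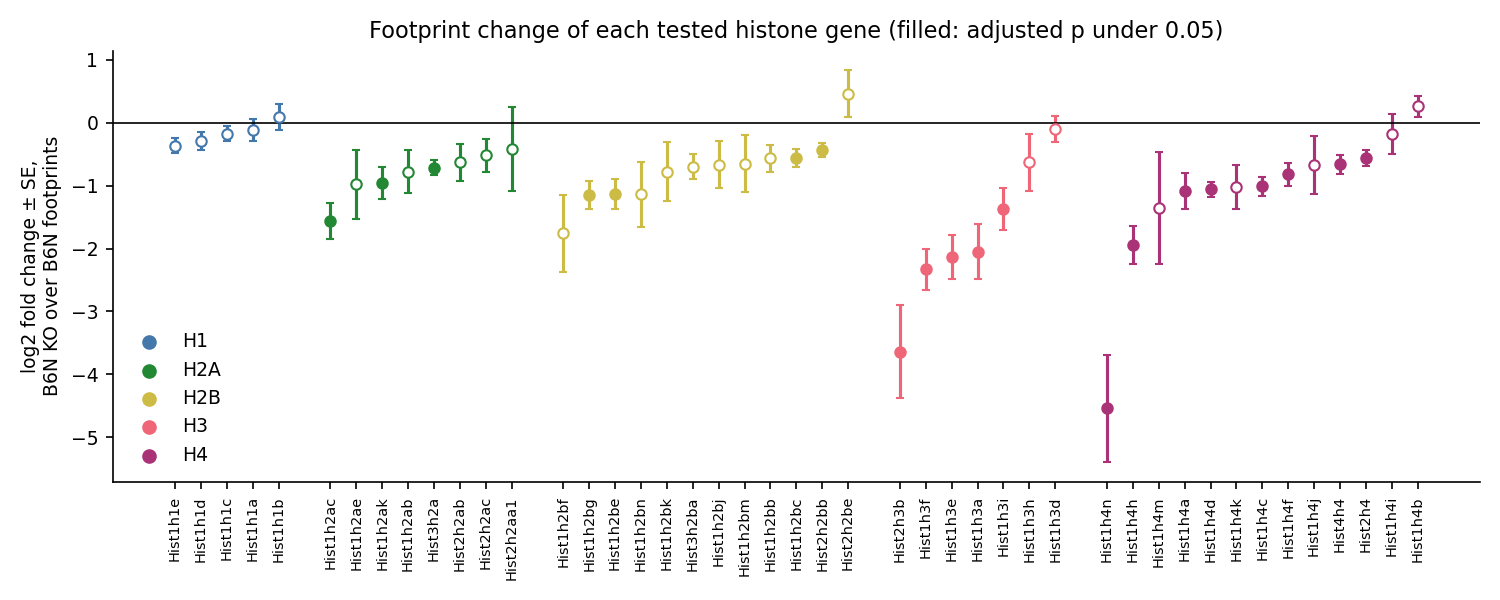
Log2 fold change of footprints, B6N knockout over B6N hippocampus, for the 45 tested members, ordered by value within each type. Bars are 1 SE and filled points have an adjusted p under 0.05 in edgeR. The filled points are 8 H4, 5 H3, 4 H2B and 3 H2A genes, all below 0, and no H1 gene is filled. Of these, Hist1h4n, Hist2h3b and Hist1h3a entered the test through B6N alone.

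The count of lower members depended on single libraries. It was 20 with all libraries, 3 without B6N replicate 3, 4 without B6N knockout replicate 2, 8 without B6N replicate 2 and 9 without B6N knockout replicate 1, while the calls among all genes ranged from 32 to 916. Hist1h3f, Hist1h4c and Hist1h4d were called in the smallest of these sets. Of the 476 other protein-coding genes with no transcript over 1000 bases, 12.8% were lower and 0.84% higher with a median log2 change of -0.19, against 2.65% lower and a median of 0.01 among 12704 longer genes. The part of transcript length in the histone result was not tested.

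Beside the cluster genes, 3 of 10 tested histone genes listed as replication-independent were lower in B6N knockout footprints: H2afj, H2afx and H3f3b, with log2 changes of -0.86, -0.75 and -0.36 (edgeR adjusted p = 0.00871, 0.0327 and 0.0474), with a list median of -0.21. Of all genes tested in these footprints 3.16% were lower and 2.19% higher. Of 17 tested histone chaperones and deposition factors 4 were higher and 0 lower, namely Nap1l2, Nap1l3, Supt16 and Supt6 at 0.42, 0.38, 0.37 and 0.35. Of 17 genes that process the histone mRNA 3′ end or act in its decay and timing, Npat, the coactivator of histone transcription, was higher at 0.45 (edgeR adjusted p = 0.0358) and 0 were lower.

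Of 12 tested genes of proliferating cells 0 were called in either direction in B6N knockout footprints, with a median log2 change of 0.27, and the 18 listed genes summed to 143.3 to 170.5 CPM in B6N knockout and 126.2 to 138.0 CPM in B6N footprints. The knockout sums were the higher ones, without overlap. Microglia markers were lower for 4 of 8, C1qa, C1qb, C1qc and Cx3cr1, where 3.16% of all tested genes were lower. The microglia list summed to 573.0 to 593.2 CPM in B6N knockout and 644.7 to 768.6 CPM in B6N. Olig1 and Olig2 of 6 oligodendrocyte precursor markers, Sox4 of 8 neuroblast markers, Neurod2 and Slc17a7 of 10 forebrain neuron genes and Prox1 of 7 hippocampus genes were lower, and 0 genes of these lists were higher. None of the tested choroid plexus, blood, cerebellum and sex genes was called. Choroid plexus genes summed to 11142.3 to 25969.1 CPM in B6N knockout and 7826.5 to 16867.9 CPM in B6N footprints, and Ddx3y had 45.5 CPM in the first B6N knockout library against 67.0 to 106.9 CPM in the other 5. The part of these cell types in the histone values was not tested. In the forebrain comparison of B6N knockout and B6N, where 1.91% of all genes were called, 3 of the 13 lists held calls. Ssrp1 of the chaperones at 0.18 and Man1a of the hippocampus list were higher, and Gad1 of the neuron list was lower at -0.18.

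Translational efficiency, the footprint change less the poly(A) RNA change, was tested by an interaction term over both assays. For single genes 0 of 55 tested members and 0 of all 15202 genes (0%) were called. At an unadjusted p under 0.05 there were 22 members, beside 14.8% of all genes. DESeq2 called 12 members, among 494 genes that it called in all. Most of the 55 entered through their footprints: 36 had at most 3 counts in at least 1 RNA library, and over the other 19 the median log2 change in efficiency was -0.85 in B6N knockout against B6N. The lowest p belonged to Hist2h4, at -1.12 ± 0.2 (edgeR adjusted p = 0.0563).

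For the sums by type 3 of 5 were lower in efficiency, where 0.0924% of all 15152 features were. H3 changed by -2.03 ± 0.3, H4 by -1.54 ± 0.21 and H2B by -0.79 ± 0.13 on the log2 scale (edgeR adjusted p = 0.0329, 0.0329 and 0.0417), and H2A by -0.92 ± 0.18 and H1 by -0.53 ± 0.21 were not called (edgeR adjusted p = 0.0599 and 0.26). The number of sums called was 0 to 4 when single libraries were left out, and it was 0 without any one library other than B6N knockout RNA replicate 1, B6N footprint replicate 1 or B6N knockout footprint replicate 3. The numerator of this ratio holds members that the poly(A) RNA barely holds, so that for H3 and H4 it rests on RNA sums of 1.29 to 7.48 CPM.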

How the data were processed

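The 33 libraries were grouped by the strain and genotype in their labels. Forebrain files hold estimated counts and TPM per transcript as deposited by the authors, and kallisto 0.42.4 is named in the submitters' processing notes. Hippocampus files hold counts per gene as deposited by the authors, and those notes name HISAT2 2.1.0, Bowtie2 2.2.3 and featureCounts; for reads matching several copies, the counting rule is not given in the sources used here. Columns of hippocampus RNA are headed B6JN per the file headers, while the labels give C57BL/6NJ. The build was mm10, per the submitters' processing notes.

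Estimated counts were summed per gene and rounded. Features kept by filterByExpr at a minimum count of 10 were tested with edgeR 4.0.16 in R 4.3.3 (TMM scaling, robust quasi-likelihood F test, two-sided, Benjamini-Hochberg adjustment). The 4 groups of forebrain batch 1 shared 1 fit. The B6J knockout was fitted together with all other forebrain libraries of both batches, 21 in all, and a batch term. The repeated sample entered as 2 libraries with a coefficient of its own, so that this pair set the batch difference. The biological coefficient of variation was 7.04% in that first fit, 7.87% in the fit with B6J knockout, 14% in hippocampus RNA and 12.9% in footprints. CPM values are TMM-scaled, and a limit of 3 counts per library, given where a group is at 0, covers counting error only. The code was tested on simulated data with known changes. The labels and design text name replicates, without saying that each is a separate mouse, so p-values measure only the spread between these samples, which may be technical.

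The members and gene lists were chosen with earlier results of these data known. Named genes are Hist1h4m, the 12 most abundant members in forebrain and the 8 in each hippocampus assay, every called member, the 8 highest and 5 lowest ratios of footprints over RNA, and the called genes of the other lists (at most 4 per comparison); other members named were chosen after their values were seen. Alternatives were DESeq2 1.42.0, RLE scaling, no filter on low counts, a replicate block and leaving out each library. Same-numbered libraries did not deviate together in any pair of groups at a correlation over 0.1 for every number, so the numbers were not taken as pairs.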

Additional observations from a re-analysis of the deposited data

Results flagged for a closer look

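In groups of 4 forebrain libraries, 4 of 90 sets of values held 1 library far from the other 3 by Dixon's ratio of gap to range, where chance gives about 1 in 20. Hist3h2ba, an H2B gene, had 7.9 CPM in B6N knockout replicate 1, against 11.6 to 12.2 CPM in the other B6N knockout libraries. The same gene had 8.14 CPM in B6J knockout replicate 3, against 10.1 to 10.5 CPM in the others of that group. The H4 sum was 227.2 CPM in B6N knockout replicate 2, against 203.9 to 207.2 CPM in the others. Hist1h4c had 40 CPM in B6J replicate 1, against 34.7 to 35.3 CPM in the other B6J libraries.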

How the results depend on the processing

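With single libraries left out, the number of members called ranged from 3 to 20 for footprints and from 0 to 6 for translational efficiency in B6N knockout against B6N, from 0 to 1 in B6N knockout against B6N forebrain, and from 48 to 54 for footprints over RNA. Sums by type called ranged from 3 to 4 for footprints, from 0 to 4 for translational efficiency and from 0 to 1 in B6J against B6N. DESeq2 called 0 members in B6J knockout against B6J and 12 for translational efficiency, and leaving out the filter gave 3 for translational efficiency; the cause was not tested. In footprints DESeq2 called 17 members, 15 of them among the 20, and no filter gave 22. With the replicate number as a block, footprints had 18 lower members, of which 17 were among the 20, and B6J against B6N had 3 called members instead of 2; 4 sums were called for translational efficiency, and no other count of members or sums changed.

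Of the alternatives for single results, 876 left the call as it was, 6 gained a call, 0 reversed and the others lost it. Counts over all genes moved more: DESeq2 called 1080 genes against edgeR's 708 in footprints, 138 against 8 in hippocampus RNA, 494 against 0 for translational efficiency, 460 against 188 in B6J knockout against B6J transgenic, 131 against 27 in B6J knockout against B6J, and 157 against 63 in B6J against B6J transgenic. Without the filter edgeR called 135 genes in hippocampus RNA, 38 for translational efficiency and 106 in B6J against B6J transgenic. The fit with B6J knockout without the repeated transgenic sample could not be made. In poly(A) RNA most members had few counts, and reads of near-identical copies limit every value of a single gene.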
